A study of Mus musculus with 10 samples.

Results

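The 37 genes described here encode scaffold proteins of the excitatory postsynaptic density, the subunits of the calcium/calmodulin-dependent kinase CaMKII, and adhesion proteins that join the presynaptic and postsynaptic membranes. The members were given as a list of gene symbols, with no threshold on their values, and were taken from the table by Ensembl identifier. The list was chosen with earlier results of these data known. All 37 were found among its 18444 genes. They comprised 14 scaffolds, 4 kinase subunits, 8 adhesion genes grouped here as presynaptic, 8 grouped as postsynaptic, and 3 Cadm genes, whose proteins act on both sides. The presynaptic group includes the latrophilins, which are also found postsynaptically, so its name is only a label for them.

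The data were whole-brain transcriptomes, sequenced from polyadenylated RNA, of C57BL/6N males aged 3 postnatal days. Arid1b+/- mice (HT, n = 5) carried 1 mutant copy of Arid1b, made with Cas9 at exon 5 and given in the sources both as a TT insertion that truncates the protein and as a chromosome 17 deletion with TT inserted, and were compared with wild-type mice (WT, n = 5). The ARID1B protein belongs to the BAF complexes, which remodel chromatin. The mutation was not restricted to a cell type, and each library was made from 1 mouse. In whole tissue, fewer cells of a type and less RNA per cell cannot be told apart. The sources used here do not say which pups shared a litter.

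At an excitatory synapse, neurexins and LAR-type receptor phosphatases on the axon bind partners such as neuroligins, Lrrtm and Slitrk proteins on the dendrite. On the postsynaptic side, PSD-95 and its relatives (Dlg genes) bind glutamate receptors and adhesion molecules, Dlgap proteins link the Dlg proteins to Shank, and Shank binds Homer, which reaches metabotropic glutamate receptors. CaMKII responds to calcium entering the cell.

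The targeted gene was examined first. Normalised read counts of Arid1b (ENSMUSG00000069729) in HT 1 to HT 5 were 2372, 2230.1, 2253, 1505 and 2142, and in WT 1 to WT 5 they were 3386, 3155, 3597, 3429 and 3108. Every HT library was below every WT library, and the mean of HT amounted to 63.0% of that of WT. Total normalised counts were 27243506 to 29032442 per library. HT 4 stood apart from the other libraries over all genes. Its score on the first principal component, which held 22.5% of the variance, was 53.9 against -23.4 to 9.81. The median distance of its genes from each gene's median over the libraries was 0.21 on the log2 scale against 0.070 to 0.092. Each comparison is therefore given with all 10 libraries and without HT 4. All 5 pan-neuronal, 5 glutamatergic and 5 GABAergic markers examined were present in the table, and the lowest mean among them was that of Dlx2 at 577 normalised counts.

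The genes were first placed in order by their level in WT brain. Longer transcripts collect more reads, so counts were divided by transcript length. Values are given per kilobase of the longest coding transcript, as the WT mean (n = 5) with the range over the 10 libraries, and an order is stated only where the median coding transcript, the longest coding transcript and the union of exons gave the same one. Of the 12 families, 5 kept the same order and 10 kept the same leading gene with all 3 lengths. Among the PSD-95 relatives, Dlg4 (PSD-95) had 2051 normalised counts per kilobase (1911 to 2173), Dlg2 (PSD-93) had 1289 (766 to 1502), Dlg3 (SAP102) had 724 (697 to 758) and Dlg1 (SAP97) had 238 (205 to 259). That order of WT means held with all 3 lengths. The ranges of neighbouring genes did not overlap with the longest or the median transcript, but with the union of exons Dlg2 at 619 (368 to 721) and Dlg3 at 614 (591 to 642) overlapped.

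In the remaining scaffold families the leading genes were Dlgap4, Shank1 and, depending on the length, Homer1 or Homer2. Dlgap4 had 1790.0 normalised counts per kilobase (1573 to 1885), whereas Dlgap2 had 97.2 (42.1 to 121) and was the lowest Dlgap gene with all 3 lengths. Shank1 had 1557 (961 to 1867). Shank2 at 578 (394 to 648) and Shank3 at 518 (455 to 585) had overlapping ranges and changed places with the length used. Homer1 had 390.5 (306 to 440.1) and Homer2 had 202 (147 to 225), an order that turned with the median transcript, while Homer3 at 169 (124 to 186) was the lowest with all 3 lengths. Of the kinase subunits, Camk2b (beta) had 4414 (3927 to 4681), and Camk2a (alpha) had 1240.0 (860.4 to 1396). Camk2b led with all 3 lengths. The ranges of Camk2a and Camk2g, at 1183 (1098 to 1274), overlapped, and Camk2d (delta) was the lowest at 822 (783 to 917).

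Among adhesion genes grouped as presynaptic, Nrxn2 had 2695 normalised counts per kilobase (2535 to 3113) and Nrxn3 had 652 (502 to 729). Ptprs led the LAR phosphatases at 2808 (2130.0 to 3015). The latrophilins followed the order Adgrl1 at 2411 (1953 to 2622), Adgrl2 at 1238 (1182 to 1492) and Adgrl3 at 696 (535 to 774). None of the ranges of neurexins or latrophilins overlapped. On the postsynaptic side, Nlgn3 had 594 (472 to 622) and Nlgn1 had 199 (158 to 226). Nlgn3 is uncertain, because 41.7% of the 31-base words in its transcripts also occurred in another annotated gene, Gm21986; no other member shared more than 5% of its words. Lrrtm1 led the Lrrtm genes at 536 (503 to 576), and Slitrk1 at 327 (279 to 359) was above Il1rapl1 at 34.0 (23.9 to 38.8). Cadm1 and Cadm3 changed places with the length used, at 1954 (1691 to 2065) and 2854 (2255 to 3194), with the WT mean of Cadm2 below both at 815 (584 to 944).

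**Figure D1:**
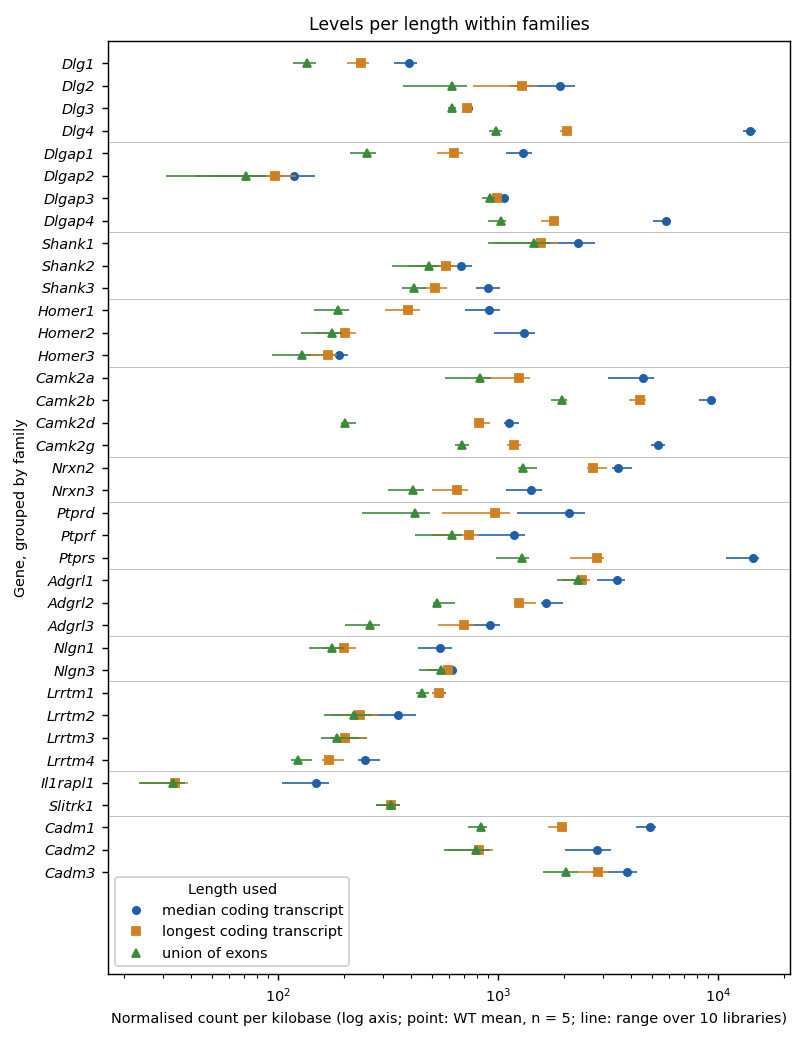
Normalised read count per kilobase (log axis) of each member in WT brain (points, mean of 5 libraries) with the range over all 10 libraries (lines), calculated with 3 definitions of transcript length. Dlg4, Camk2b, Ptprs, Nrxn2 and Adgrl1 lead their families with every length, whereas the leading Homer and Cadm genes depend on the length.

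Whether these transcripts differ between genotypes was tested with limma on log2(value + 1), with Benjamini-Hochberg adjustment over 17020 genes. With all 10 libraries none of the 37 members passed an adjusted p of 0.05, which 0% of all genes tested did. Arid1b itself, whose groups were fully separated, did not pass in this fit (limma adjusted p = 0.39). It passed without HT 4 (limma adjusted p = 0.000252). The absence of calls with all 10 libraries therefore does not show that the members were unchanged. At an unadjusted p under 0.05 there were 2 members, Homer3 (lower in HT) and Lrrtm4 (higher in HT), where 3.41% of all genes did so. For none of the members were the HT and WT libraries fully separated, against 0.629% of all genes. The exact permutation test, which cannot give a p below 0.00794 with 5 against 5, put 2 members under 0.05, beside 3.9% of all genes. The median log2 fold change of the members was 0.0044, with 19 higher and 18 lower in HT, beside a median of -0.0074 over all genes tested. Differences among WT mice set the scale: the coefficient of variation over the 5 WT libraries ran from 1.34% (Dlg3) to 14.7% (Dlgap2), with a median of 4.66%, and the median SE of a member's log2 fold change was 0.082.

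Without HT 4, 35 of the 37 members had higher mean log2 values in HT than in WT, and only Homer3 and Dlgap3 were lower. The median log2 fold change of the members was 0.075, beside -0.00081 over all genes, of which 49.6% were higher in HT. None of the members passed the adjusted threshold, which 0.0118% of all genes did; the smallest adjusted p was 0.423, for Lrrtm2 (limma). At an unadjusted p under 0.05 there were 15 members, 14 of them higher in HT; over all genes 8.4% were under 0.05 and 4.69% were so and higher in HT. The groups did not overlap for 6 members, all higher in HT and in this fit all adhesion genes (Adgrl1, Adgrl2, Lrrtm2, Slitrk1, Cadm2 and Cadm3), against 2.96% of all genes in either direction and 1.75% in this direction. That all were adhesion genes did not hold once trends with transcript length and GC content were removed, as described below. The exact permutation test put 14 members under 0.05, beside 7.88% of all genes. The 37 genes were measured in the same libraries, so these counts are not independent of each other. The genes were also chosen with earlier results of these data known, so the counts are descriptions and not a test of the list.

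The shift between the fits was read by role. The scaffolds had a median log2 fold change of -0.021 with all libraries, with 4 of 14 higher in HT, and of 0.029 without HT 4, with 12 of 14 higher. For the 4 kinase subunits the medians were 0.018 and 0.076. The adhesion genes grouped as presynaptic, latrophilins included, had 0.0059 and 0.092, with 4 and 8 of 8 higher in HT. Those grouped as postsynaptic had 0.032 and 0.080, with 6 and 8 of 8 higher. The 3 Cadm genes had 0.030 and 0.14. Differences between the roles were not tested.

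**Figure D2:**
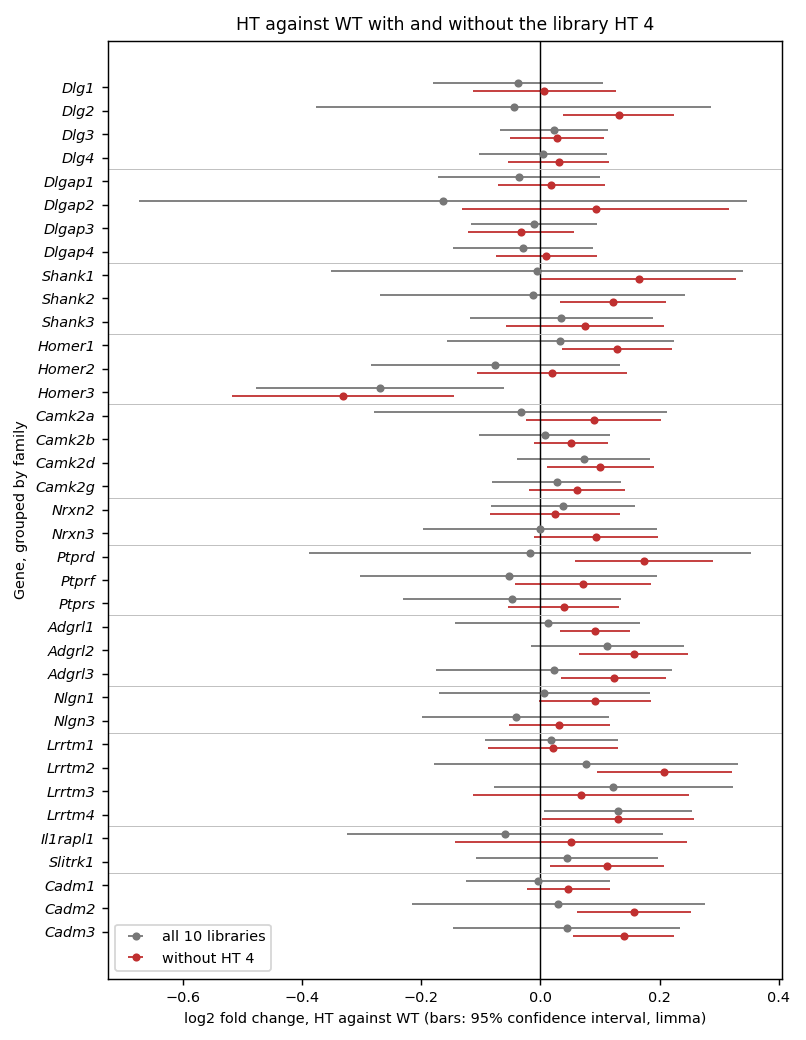
Log2 fold change of HT against WT for the 37 members (points) with 95% confidence intervals (bars, limma), with all 10 libraries in grey and without HT 4 in red. Without HT 4 the intervals are narrower and 35 of 37 points lie above 0; Homer3 lies below 0 in both fits.

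Neuronal markers were read beside these values. The summed counts of the 5 pan-neuronal markers (Tubb3, Map2, Snap25, Stmn2 and Rbfox3) were 149980.0 to 157460.0 in WT, 151320.0 to 163380.0 in the other HT libraries and 147530.0 in HT 4. For the 5 glutamatergic markers the sums were 18242 to 20127 in WT, 19256 to 20736 in the other HT libraries and 16366 in HT 4. The median log2 fold change of the pan-neuronal markers without HT 4 was 0.033, with 4 of 5 higher in HT, and that of the glutamatergic markers was 0.034, with 4 of 5 higher. Most of these markers were thus higher in HT, as most members were. In the same fit the median was 0.051 for the GABAergic markers (3 of 5 higher) and 0.37 for the erythroid markers (4 of 4 higher). The remaining marker lists were mostly lower in HT: the median was -0.42 for choroid plexus (0 of 4 higher, 3 at an unadjusted limma p under 0.05), -0.33 for microglia (0 of 5 higher, 1 under 0.05), -0.13 for endothelium (1 of 5 higher, 3 under 0.05), -0.28 for hindbrain and cerebellum (2 of 6 higher), -0.070 for forebrain (1 of 5 higher), -0.029 for astrocytes (2 of 5 higher) and -0.022 for the oligodendrocyte lineage (2 of 6 higher). The part of these markers in the members' values was not tested.

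Among the scaffolds, Homer3 was the member with the smallest p with all libraries, and the only scaffold that was lower in HT under every one of the 21 settings of the analysis. Homer3 (ENSMUSG00000003573, chr8:70282827-70294361, GRCm38) encodes a Homer protein enriched in cerebellar Purkinje cells. Its normalised counts in HT 1 to HT 5 were 336, 409.6, 333, 434 and 323, and in WT 1 to WT 5 they were 448, 393, 435, 440.2 and 485. HT 1, HT 3 and HT 5 were below every WT library, whereas HT 2 and HT 4 lay within the WT range. The log2 fold change was -0.27 (95% confidence interval -0.48 to -0.06, limma p = 0.0155, adjusted p = 0.9997, exact permutation p = 0.0476), and without HT 4 it was -0.33 (-0.52 to -0.15, limma p = 0.00186, adjusted p = 0.446). The summed counts of the 6 hindbrain and cerebellum markers were 4758 to 6121 in WT and 3657 to 5489 in HT without HT 4, and 6166 in HT 4, so this list, like Homer3, was highest in HT 4 among the HT libraries; its part in the Homer3 values was not tested.

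The other Homer genes, which link metabotropic receptors to Shank, showed a different pattern. Homer1 in HT 1 to HT 5 had 2514, 2434, 2338, 1749 and 2470.5 normalised counts, and in WT 1 to WT 5 it had 2122, 2186, 2363, 2251 and 2232. HT 1, HT 2 and HT 5 were above every WT library and HT 4 was below every one, and without HT 4 its log2 fold change was 0.13 (0.037 to 0.22, limma p = 0.00933, adjusted p = 0.462, exact permutation p = 0.0238). Homer2 in HT 1 to HT 5 had 2467, 2134, 2287, 1610.1 and 2101 normalised counts, and in WT 1 to WT 5 it had 2214, 2057, 2402, 2313 and 2091. Apart from HT 4, the HT values of Homer2 lay around those of WT, with a log2 fold change of -0.075 with all libraries and 0.020 without HT 4.

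PSD-95 and its relatives differed little. Dlg4 in HT 1 to HT 5 had 12417, 13506, 13552, 12087 and 13548 normalised counts, and in WT 1 to WT 5 it had 13749, 12858, 13207, 12230.2 and 12838. The groups overlapped, and the log2 fold change was 0.0044 (95% confidence interval -0.10 to 0.11). Dlg3 had 3645 ± 124 (SD, n = 5) in HT and 3587 ± 48.0 in WT, and Dlg1 had 1423 ± 109 and 1459 ± 96.2. Dlg2 was more variable, at 10015 ± 2288 in HT and 10069 ± 555 in WT: HT 4 had 5988, while the other HT libraries had 10757 to 11733, and without HT 4 the log2 fold change was 0.13 (0.038 to 0.22, limma p = 0.0092, adjusted p = 0.462, exact permutation p = 0.0317).

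The Dlgap genes, encoding the linkers between PSD-95 and Shank, gave no p under 0.05 in either fit. Dlgap4 in HT 1 to HT 5 had 8365, 8612, 8909.8, 7632 and 9069.8 normalised counts, and in WT 1 to WT 5 it had 8379.5, 9034, 8599, 8263 and 9145. Its groups overlapped with and without HT 4. Dlgap1 had 4428 ± 425 in HT and 4522 ± 99.7 in WT, Dlgap3 had 4118 ± 214 and 4148 ± 144, and Dlgap2 had 410.1 ± 131 and 438 ± 64.3. Dlgap2 in HT 4, at 189.7 normalised counts, was 40.8% of the mean of the other HT libraries, the lowest such share among the members.

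Of the Shank genes, whose large scaffold proteins sit deep in the postsynaptic density, Shank1 and Shank2 were lower in HT 4 than in every other library. Shank1 in HT 1 to HT 5 had 16924, 15792, 18344, 9443 and 17321 normalised counts, and in WT 1 to WT 5 it had 15955, 12998, 17549, 15224 and 14756. Shank1 had a log2 fold change of -0.0056 for 5 against 5 and of 0.17 without HT 4 (0.0019 to 0.33, limma p = 0.0478, exact permutation p = 0.103), and the groups overlapped in both. Shank2 had 5231 ± 956 in HT and 5199 ± 272 in WT, with 0.12 without HT 4 (limma p = 0.0106, adjusted p = 0.464, exact permutation p = 0.0397). Shank3 had 3909 ± 332 in HT and 3813 ± 308 in WT, with 0.075 without HT 4 (exact permutation p = 0.373).

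The kinase subunits were slightly higher in HT once HT 4 was left out. Camk2b in HT 1 to HT 5 had 17726, 18551, 18497, 15798 and 18832 normalised counts, and in WT 1 to WT 5 it had 17420.0, 18082, 17972, 17749 and 17568. HT 1 and HT 4 lay under the highest WT library and HT 2, HT 3 and HT 5 above it, with a log2 fold change of 0.051 without HT 4 (-0.012 to 0.11, limma p = 0.102, exact permutation p = 0.0556). Camk2d, the subunit with the smallest p, in HT 1 to HT 5 had 5025, 4735, 5068, 4419 and 4649, and in WT 1 to WT 5 it had 4326, 4431, 4558, 4839.7 and 4553. For Camk2d the log2 fold change was 0.073 for 5 against 5 (exact permutation p = 0.167) and 0.10 without HT 4 (0.011 to 0.19, limma p = 0.0308, exact permutation p = 0.0635). Camk2a had 6097 ± 1071 in HT and 6162 ± 416 in WT, and Camk2g had 4471 ± 255 and 4382 ± 145; neither had a p under 0.05 in either fit.

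Among the presynaptic adhesion genes the latrophilins (adhesion G protein-coupled receptors that bind teneurins and Flrt proteins, and that are also found postsynaptically) were described first. Adgrl2, the gene of this group with the smallest p in both fits (ENSMUSG00000028184, chr3:148815583-148990555, GRCm38) in HT 1 to HT 5 had 8377, 7787, 8255, 7156 and 9031 normalised counts, and in WT 1 to WT 5 it had 7205, 7408, 7759.96, 7352 and 7745. HT 1, HT 2, HT 3 and HT 5 were above all 5 WT libraries and HT 4 was below all of them. The log2 fold change for 5 against 5 was 0.11 (limma p = 0.0808, adjusted p = 0.9997, exact permutation p = 0.119) and 0.16 without HT 4 (0.065 to 0.25, limma p = 0.00244, adjusted p = 0.446, exact permutation p = 0.00794, the smallest that 4 against 5 allows).

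Adgrl1 (ENSMUSG00000013033, chr8:83900105-83941954, GRCm38) showed the same arrangement of libraries with a smaller difference. Its counts in HT 1 to HT 5 were 21133, 20606, 20868, 15974 and 21454, and in WT 1 to WT 5 they were 19723, 19374, 20108, 19634 and 19772. The WT libraries were close together (coefficient of variation 1.34%), and the log2 fold change without HT 4 was 0.092 (0.033 to 0.15, limma p = 0.00475, adjusted p = 0.446, exact permutation p = 0.00794); with all libraries it was 0.012. Adgrl3 had 4774 ± 683 in HT and 4659 ± 217 in WT, with 0.12 without HT 4 (0.034 to 0.21, limma p = 0.0101, adjusted p = 0.464, exact permutation p = 0.0397). All 3 latrophilins were thus under an unadjusted p of 0.05 without HT 4, and none with it.

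The neurexins, the principal presynaptic partners of neuroligins, and the LAR phosphatases were next. Nrxn2 in HT 1 to HT 5 had 16899.8, 17631, 17995, 19145 and 20753 normalised counts, and in WT 1 to WT 5 it had 18768, 17794, 17988, 17142 and 18138. Here HT 4 was not low, and the highest and the lowest library were both HT. This gave a log2 fold change of 0.038 (-0.082 to 0.16). Nrxn3 had 5196 ± 691 in HT and 5167 ± 379 in WT, with 0.093 without HT 4 (exact permutation p = 0.127). Ptprs in HT 1 to HT 5 had 20667, 20528, 19957, 14598 and 18037, and in WT 1 to WT 5 it had 20174, 18645, 19946, 19142 and 18333, so that the groups overlapped with and without HT 4. Ptprf had 5476 ± 953 in HT and 5615 ± 425 in WT. Ptprd had 9694 ± 2381 and 9530.4 ± 753, with a log2 fold change of 0.17 without HT 4 (0.058 to 0.29, limma p = 0.00624, adjusted p = 0.446, exact permutation p = 0.0476).

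On the postsynaptic side the Lrrtm genes, which encode leucine-rich repeat partners of neurexins and heparan sulfate proteoglycans, were all higher in mean log2 value in HT in both fits. Lrrtm4 (ENSMUSG00000052581, chr6:80018877-80810143, GRCm38) in HT 1 to HT 5 had 773, 879.5, 831, 828 and 829 normalised counts, and in WT 1 to WT 5 it had 764, 743, 755, 705 and 815. All HT libraries but HT 1 were above the highest WT library. The log2 fold change was 0.13 (0.0057 to 0.26, limma p = 0.0417, adjusted p = 0.9997, exact permutation p = 0.0159), and it was 0.13 without HT 4 as well (limma p = 0.0456, adjusted p = 0.583).

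Lrrtm2 had the smallest p of the members without HT 4. Its normalised counts in HT 1 to HT 5 were 1556, 1544, 1449, 973 and 1605, and in WT 1 to WT 5 they were 1253, 1297, 1377, 1439 and 1296. HT 4 was the lowest library, and the remaining HT libraries were above every WT library. The log2 fold change for 5 against 5 was 0.076 (limma p = 0.528) and 0.21 without HT 4 (0.096 to 0.32, limma p = 0.00138, adjusted p = 0.423, exact permutation p = 0.0159). Lrrtm3 in HT 1 to HT 5 had 775, 790.3, 875, 988 and 847, and in WT 1 to WT 5 it had 807, 667, 871, 706 and 888, with HT 4 the highest library and overlapping groups (log2 fold change 0.12, exact permutation p = 0.286). Lrrtm1 in HT 1 to HT 5 had 1277, 1464, 1350.2, 1369.97 and 1442, and in WT 1 to WT 5 it had 1358, 1379, 1319.7, 1339 and 1413. Its groups overlapped throughout (0.019, -0.092 to 0.13).

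Slitrk1 and Il1rapl1 encode partners of the LAR phosphatases, and the neuroligins are partners of neurexins. Slitrk1 in HT 1 to HT 5 had 1877, 1914, 1923, 1497 and 1857 normalised counts, and in WT 1 to WT 5 it had 1687, 1653, 1843, 1779 and 1796. All HT libraries but HT 4 were above every WT library, with a log2 fold change of 0.11 without HT 4 (0.017 to 0.21, limma p = 0.0247, adjusted p = 0.533, exact permutation p = 0.0159). Il1rapl1 had 300.2 ± 48.1 in HT and 311 ± 34.0 in WT. Nlgn3 in HT 1 to HT 5 had 5275, 5078, 5314, 4029 and 5067, and in WT 1 to WT 5 it had 5293, 5034, 5100.5, 5231 and 4712, with overlap in both fits. Nlgn1 had 2380.3 ± 307 in HT and 2353 ± 72.8 in WT, with 0.092 without HT 4 (limma p = 0.0539, exact permutation p = 0.0476).

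The Cadm (SynCAM) genes encode immunoglobulin-domain proteins that bind one another across the cleft. Cadm3 (ENSMUSG00000005338, chr1:173333258-173367695, GRCm38) in HT 1 to HT 5 had 15889, 16052, 16376, 11622 and 16464 normalised counts, and in WT 1 to WT 5 it had 15549, 13705, 15559.8, 14559 and 14194. Cadm2 (ENSMUSG00000064115, chr16:66655421-67620908, GRCm38) in HT 1 to HT 5 had 8976, 9029, 8331, 5583 and 8405, and in WT 1 to WT 5 it had 7484, 7586, 8258, 8292 and 7343. For both genes HT 4 was the lowest of all libraries and the remaining HT libraries were above all WT libraries. Without HT 4 the log2 fold change was 0.14 for Cadm3 (0.055 to 0.22, limma p = 0.00319, adjusted p = 0.446, exact permutation p = 0.0238) and 0.16 for Cadm2 (0.061 to 0.25, limma p = 0.0034, adjusted p = 0.446, exact permutation p = 0.0317), and with all libraries it was 0.044 and 0.030. Cadm1 in HT 1 to HT 5 had 9112, 9253, 9188, 7579.96 and 8638, and in WT 1 to WT 5 it had 8535, 8779, 8744, 9020.2 and 8704; its groups overlapped in both fits.

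**Figure D3:**
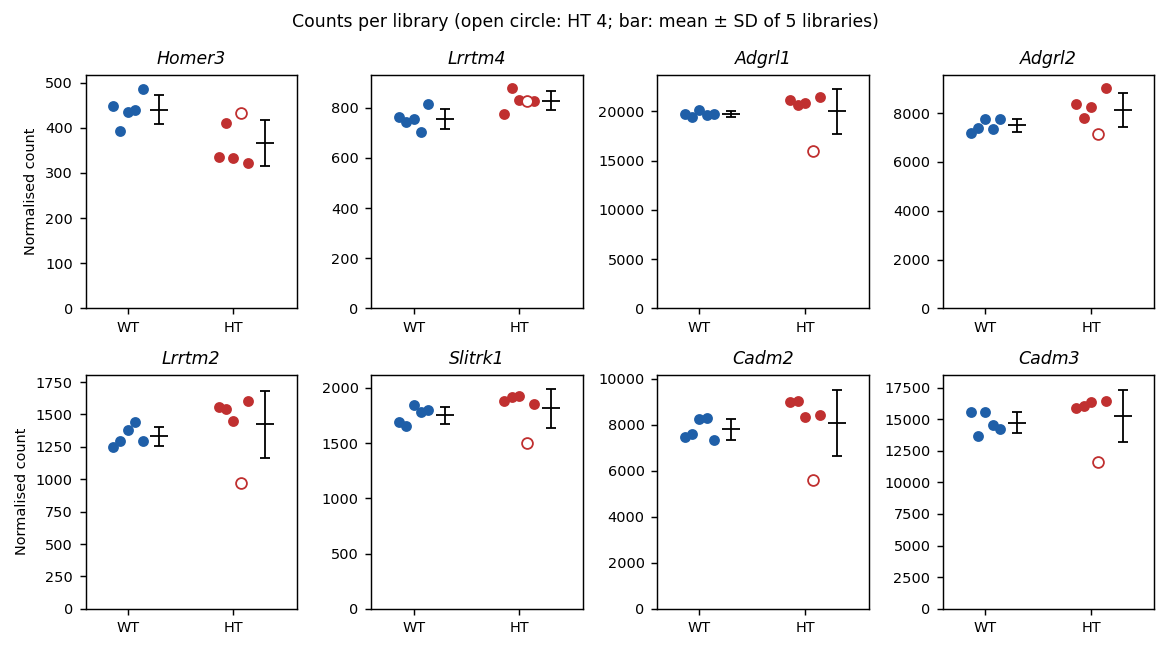
Normalised read count per library (linear axis from 0) of 8 members in WT (blue) and HT (red), with HT 4 as an open circle and the mean ± SD of 5 libraries beside the points. HT 4 is the lowest HT library for Adgrl1, Adgrl2, Lrrtm2, Slitrk1, Cadm2 and Cadm3, whose remaining HT libraries are above all WT libraries, whereas it is the highest HT library for Homer3.

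HT 4 was therefore described across all members. It was the lowest of the 10 libraries for 28 members and the highest for 2 (Dlgap3 and Lrrtm3), and it was below the mean of the other HT libraries for 32. The lowest shares of that mean were 40.8% (Dlgap2), 51.3% (Ptprd), 54.3% (Dlg2) and 55.2% (Shank1), and the highest was 124% (Homer3). The mean log2 deviation of the 37 members from each gene's mean over the 10 libraries was -0.29 in HT 4, 0.064 to 0.077 in the other HT libraries and -0.041 to 0.047 in WT. The other HT libraries were thus above every WT library in this mean, which was not corrected for transcript length, and HT 4 was below all of them.

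**Figure D4:**
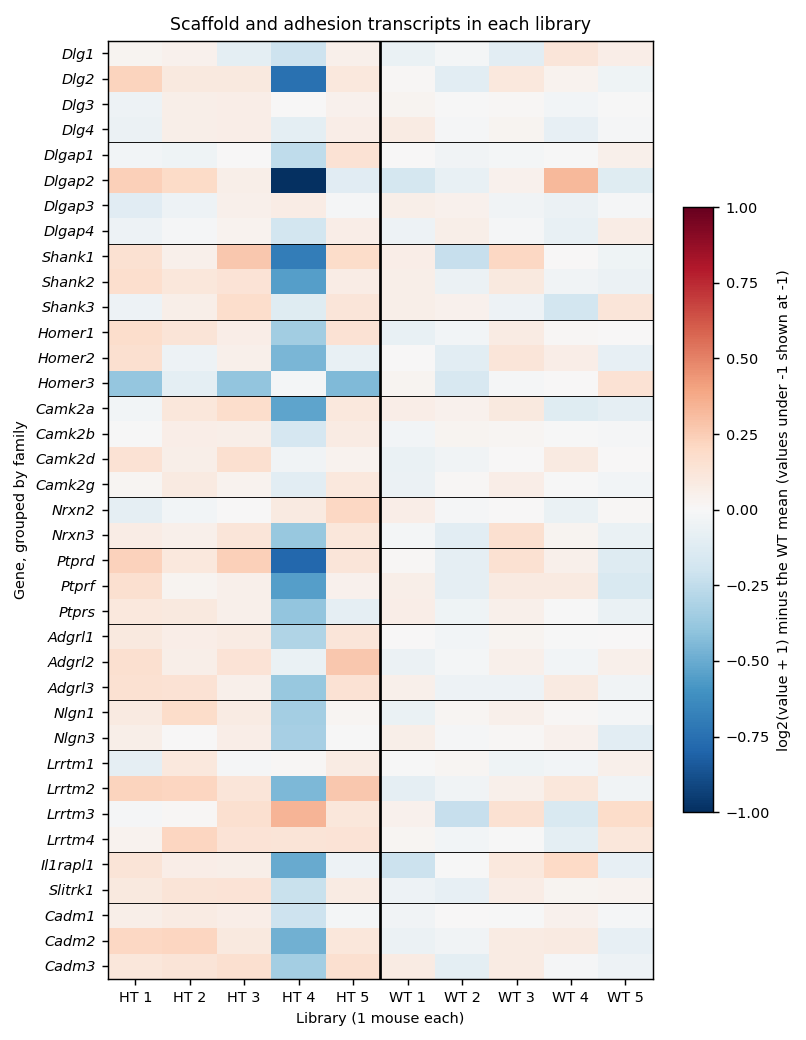
Log2(value + 1) minus the WT mean for each member (rows, grouped by family) in each library (columns); red is above and blue below the WT mean, and values under -1 are drawn at -1. The HT 4 column is blue for most genes and darkest for Dlgap2, Ptprd, Dlg2 and Shank1, while Homer3 is blue in HT 1, HT 3 and HT 5.

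Transcript length moved with the position of HT 4. Across the 37 members the Spearman correlation between the longest coding transcript and the log2 deviation of HT 4 from the mean of the other HT libraries was -0.61, and across 17008 genes it was -0.49; these are descriptions of 1 library over genes that share it. The members were long, with a median of 6143 bases against 3060.0 for all genes. The 20 members of at least 6000 bases had a median deviation of -0.45, beside -0.36 for all 2171 genes of that length. The 17 shorter members had -0.19, beside 0.058 for 14837 shorter genes. The shorter groups were not matched in length. Over all genes, the deciles with median lengths of 4554 and 5644 bases had median deviations of -0.14 and -0.22. When the trend of each library on length and GC content was removed, the mean of the members in HT 4 was -0.11, still outside the range of the other libraries (-0.029 to 0.072). HT 1, at -0.0020, was then below WT 5, at 0.027. The other HT libraries were thus no longer all above every WT library. With the trend removed and HT 4 left out, 31 of 37 members were higher in HT (54.7% of all genes), 15 had an unadjusted p under 0.05 (7.95% of all genes) and the groups of 7 did not overlap (2.69% of all genes). These 7 were the scaffolds Dlg2, Shank2 and Homer1 and the adhesion genes Adgrl1, Lrrtm2, Cadm2 and Cadm3. The groups of Adgrl2 and Slitrk1 overlapped in this fit. No member passed the adjusted threshold, which 0.0118% of all genes did, and the smallest adjusted p was 0.364, for Cadm3 (limma).

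**Figure D5:**
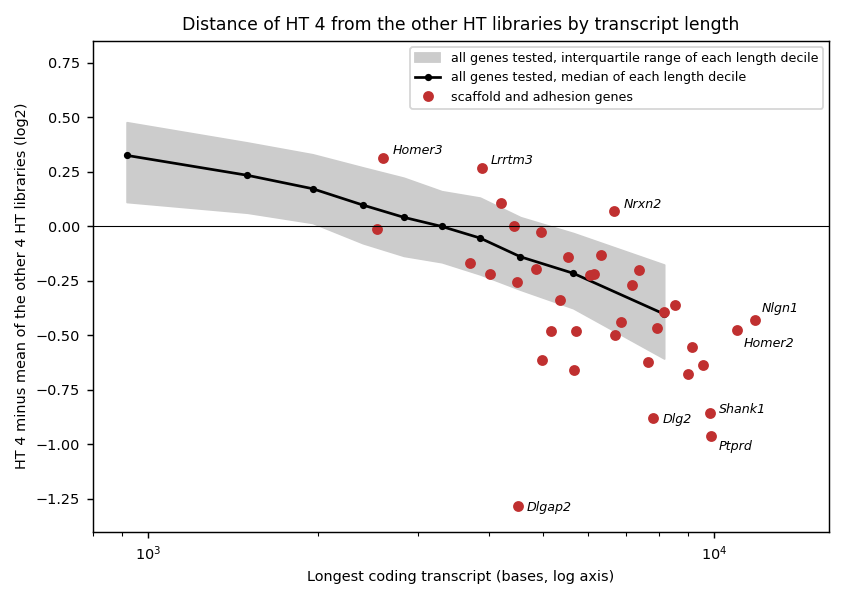
Log2 difference between HT 4 and the mean of the other 4 HT libraries against the longest coding transcript (bases, log axis) for the 37 members (red) and for all genes tested (black, median of each length decile; grey, interquartile range). Both fall with length, and Dlgap2 lies far below genes of its length.

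Cell-type markers in HT 4 moved as well. Summed counts of the 5 astrocyte markers were 24621 in HT 4 against 18760.0 to 23297 in the remaining libraries, those of the 6 oligodendrocyte lineage markers were 11938 against 9108 to 10803, and those of the 5 forebrain markers were 8271 against 10622 to 12744. The part of length and of these markers in the low values of the members in HT 4 was not tested.

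The same pathway was read through 2 further lists. Of 30 other postsynaptic scaffold and signalling genes, none had an unadjusted p under 0.05 with all libraries, and the median log2 fold change was -0.0041 with 13 higher in HT. Without HT 4 the median was 0.050, 27 were higher and 6 had an unadjusted p under 0.05, all higher in HT. These 6 were 20.0% of the list, beside 8.4% of all genes, of which 49.6% were higher in HT. With all libraries 3.41% of all genes were under 0.05. Akap5, which anchors protein kinase A at the synapse, had 2292 ± 105 in HT without HT 4 and 2032 ± 84.6 in WT (log2 fold change 0.17, limma p = 0.00214, adjusted p = 0.446, exact permutation p = 0.00794), and Lin7a, a partner of Cask, had 416 ± 33.3 and 349 ± 31.9 (0.25, limma p = 0.0108, adjusted p = 0.465). Cyfip1 and Pick1 had the smallest p with all libraries, with log2 fold changes of -0.10 (exact permutation p = 0.206) and 0.093 (exact permutation p = 0.19).

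Of 49 other synaptic adhesion genes, 3 had an unadjusted p under 0.05 with all libraries, 2 of them higher in HT, and the median was -0.0013 with 24 higher. Without HT 4 the median was 0.028, 38 were higher and 8 had an unadjusted p under 0.05, 7 of them higher in HT. The share under 0.05 was 6.12% with all libraries, beside 3.41% of all genes. Without HT 4 it was 16.3%, beside 8.4% of all genes. Efnb1, encoding the ligand ephrin-B1, had 803, 773, 725, 725 and 742 normalised counts in HT 1 to HT 5 and 861, 835, 832, 919.7 and 832 in WT 1 to WT 5. Every HT library of Efnb1, HT 4 included, was below every WT library (log2 fold change -0.18, limma p = 0.00555, adjusted p = 0.9997, exact permutation p = 0.00794). Cbln2, a secreted organiser that bridges neurexins to glutamate delta receptors, had 1751 ± 77.2 in HT and 1564 ± 73.9 in WT (0.16, limma p = 0.00777, adjusted p = 0.9997, exact permutation p = 0.0159). Tenm1 and Lrfn5 had the smallest p without HT 4, with log2 fold changes of 0.23 (limma p = 0.00502, adjusted p = 0.446, exact permutation p = 0.0397) and 0.12 (limma p = 0.00646, adjusted p = 0.446, exact permutation p = 0.0159).

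Because many members shifted together without HT 4, the bases before their RefSeq starts were compared. RefSeq promoter windows (GRCm38.p6) were matched for 27 of the 37 members. For 20 of these, bases just after the start were found in a GENCODE transcript of the same gene. The other 7 may not be promoters of the annotated transcripts. A match could lie anywhere in a transcript, so it does not show that a window is a promoter. Some matched windows, such as those of Nrxn3 and Adgrl2, lie inside the annotated gene. The 250 bases before the start were searched on both strands for the GC box GGGCGG, the cyclic AMP response element TGACGTCA, the MEF2 core (CTA and TAG 4 bases apart) and the TATA motif TATAAA. The GC box was found in 11 of the 27 windows (9 of the 20), beside 32.7% of 32851 promoters. The cyclic AMP response element was found in none, beside 1.55% of promoters, the MEF2 core in 1 (Nlgn1), beside 3.2%, and TATAAA in 2 (Adgrl2 and Lrrtm4), beside 12.4%. A match is only a description of the letters in the window. Among the windows whose start was found in a transcript, the sequences of Lrrtm4, the member with the smallest exact p with all libraries, and of Adgrl1, Cadm2 and Cadm3, whose groups did not overlap without HT 4, are given 5′ to 3′ on the strand of the gene, with the GC box and TATAAA motifs of either strand in capitals.
Lrrtm4 (chr6:80018627-80018876, plus strand): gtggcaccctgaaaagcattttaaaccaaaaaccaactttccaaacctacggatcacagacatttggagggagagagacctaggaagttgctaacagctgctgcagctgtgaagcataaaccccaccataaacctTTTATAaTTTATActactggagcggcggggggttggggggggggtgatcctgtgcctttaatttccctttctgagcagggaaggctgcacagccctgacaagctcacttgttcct
Adgrl1 (chr8:83899848-83900097, plus strand): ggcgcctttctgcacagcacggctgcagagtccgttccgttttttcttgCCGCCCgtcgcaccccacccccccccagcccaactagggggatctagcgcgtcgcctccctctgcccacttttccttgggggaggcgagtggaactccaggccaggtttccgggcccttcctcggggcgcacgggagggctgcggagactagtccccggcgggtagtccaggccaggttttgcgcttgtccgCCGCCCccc
Cadm2 (chr16:67620909-67621158, minus strand): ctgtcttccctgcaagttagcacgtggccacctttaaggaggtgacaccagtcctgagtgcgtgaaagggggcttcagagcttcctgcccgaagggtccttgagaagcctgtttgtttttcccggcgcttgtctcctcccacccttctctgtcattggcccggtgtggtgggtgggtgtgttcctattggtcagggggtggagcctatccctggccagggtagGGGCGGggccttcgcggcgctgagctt
Cadm3 (chr1:173367696-173367945, minus strand): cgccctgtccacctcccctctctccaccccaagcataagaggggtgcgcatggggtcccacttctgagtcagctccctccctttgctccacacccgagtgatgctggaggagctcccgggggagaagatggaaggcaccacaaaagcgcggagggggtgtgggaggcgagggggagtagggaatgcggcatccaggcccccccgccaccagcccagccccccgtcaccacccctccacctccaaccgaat
Lrrtm4 held 2 TATAAA matches and no GC box, Adgrl1 held 2 GC boxes, Cadm2 held 1, and Cadm3 held none of the motifs. The window of Adgrl2, which lies inside the annotated gene, is not printed. Its start was found in a transcript, and the gene's groups did not overlap without HT 4. That window held 1 TATAAA match and no GC box. With it, the GC box was found in Adgrl1 and Cadm2, and TATAAA in Lrrtm4 and Adgrl2.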

How the data were processed

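RNA of 10 whole brains (5 HT, 5 WT) was prepared with a stranded poly-A kit. Per the submitters' processing notes and the study's methods, reads were quantified with Salmon 1.1.0 on GRCm38 and normalised with DESeq2 1.30.1; per the methods, GC bias was corrected and values were summarised by gene. The notes name R 4.1.1 and the methods an older R. The deposited table holds normalised counts, a signal normalised by the authors with DESeq2, for 18444 genes. Read depth per gene is unknown, since the values were not whole multiples of a read, so count models were not used. The annotation release and any filter on low counts are not given in the sources used here.

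Values were tested as log2(value + 1) with limma 3.58.1 (R 4.3.3; empirical Bayes with trend, robust) in 17020 genes with a mean of at least 10, and single genes by two-sided exact permutation of the mean log2 difference. P-values measure the spread between mice. Gene names, lengths and positions came from the GENCODE M21 annotation of GRCm38 (18431 identifiers matched). Length per kilobase by the longest transcript, and the fit without HT 4 with the length and GC trend removed, were chosen after seeing the data. The script was tested on simulated data. Groups followed the sample labels. Replicate numbers were not used to pair the samples in the main fit. Same-number correlations of deviations were 0.091, 0.084, 0.082, -0.10 and 0.093. For HT 1, HT 2, HT 3 and HT 5 the WT library of the same number was the best correlated one. Whether the numbers mark a shared litter or batch was not tested. Members and lists were chosen with earlier results of these data known. Genes planned to be given in full were Arid1b, the 5 members with the smallest limma p with all libraries and the 5 without HT 4. Members whose groups did not overlap were included, as was the member with the highest level per length in each family. That leader was taken by the median transcript and, where it differed, also by the longest. From each further list the 2 genes with the smallest p in each fit are named, and only Efnb1 has every library printed. Other members are given by group means. Alternatives were other pseudocounts and filters, quantile normalisation, equal totals, sample weights, removal of the length and GC trend, a replicate block, and leaving out each library.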

Additional observations from a re-analysis of the deposited data

Results flagged for a closer look

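In each group of 5 libraries, the gap between the most extreme library and its nearest neighbour was divided by the range of the group and set against Dixon's critical value of 0.71. Of 80 groups checked (37 members and 3 list means, in HT and in WT), 19 passed, where chance alone would flag about 4, and in all 19 the library was HT 4 as the lowest of HT. The genes share that library, so the flags are not independent. The ratio was 0.871 for Dlg2, 0.752 for Dlgap2, 0.774 for Shank1, 0.876 for Shank2 and 0.799 for Homer1 among the scaffolds. Among the presynaptic adhesion genes it was 0.86 for Nrxn3, 0.868 for Ptprd, 0.816 for Ptprf, 0.863 for Adgrl1 and 0.802 for Adgrl3. Among the postsynaptic adhesion genes it was 0.828 for Nlgn3, 0.796 for Lrrtm2, 0.712 for Il1rapl1 and 0.861 for Slitrk1. For Cadm2 it was 0.833 and for Cadm3 0.898. The mean of the members had 0.964, that of the other scaffold and signalling genes 0.832, and that of the other adhesion genes 0.915. None of the kinase subunits and no WT group passed.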

How the results depend on the processing

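No member passed the adjusted threshold under any of the 20 alternatives, where the smallest adjusted p was 0.364. The number of members at an unadjusted p under 0.05, 2 with all libraries, was 1 with equal totals, 1 with the replicate block, 8 with sample weights, 4 with the length and GC trend removed, 15 with that trend removed and HT 4 left out, and 1 to 15 when each library was left out in turn, the 15 without HT 4. The number whose groups did not overlap, 0 with all libraries, was 0 to 6 in the same fits, the 6 without HT 4, and 7 with the trend also removed. Over all genes, 3.41% were under 0.05 with all libraries, 8.4% without HT 4 and 4.65% with the trend removed. With the trend removed and HT 4 left out it was 7.95%. The shares without overlap were 0.629% with all libraries, 2.96% without HT 4 and 2.69% with the trend also removed. Shares in the other fits are not given here, so those counts have no background. The replicate block changed no other call; HT 1, HT 2, HT 3 and HT 5 each correlated best with the WT library of the same number.

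The median log2 fold change of the members moved to 0.067 with sample weights and 0.069 without HT 4 and the trend, with -0.014 to 0.075 over single libraries left out. For the other scaffolds these values were 0.047, 0.059 and -0.023 to 0.0502, and for the other adhesion genes 0.0302, 0.046 and -0.021 to 0.028. The cause was not tested.

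Of the 37 members, 27 changed sign under at least 1 alternative, none of them a call. Dlg3, Camk2d, Camk2g, Adgrl2, Lrrtm2, Lrrtm3, Lrrtm4, Slitrk1 and Cadm3 were higher in HT and Homer3 was lower in HT under all 20. With single libraries left out, the log2 fold change ran from -0.063 to 0.0063 for Dlg1, -0.11 to 0.13 for Dlg2, -0.017 to 0.031 for Dlg4, -0.0799 to 0.018 for Dlgap1, -0.26 to 0.093 for Dlgap2, -0.032 to 0.015 for Dlgap3, -0.053 to 0.0096 for Dlgap4, -0.074 to 0.17 for Shank1, -0.057 to 0.12 for Shank2, -0.0102 to 0.075 for Shank3, -0.0017 to 0.13 for Homer1, -0.13 to 0.0201 for Homer2, -0.085 to 0.089 for Camk2a, -0.012 to 0.051 for Camk2b, -0.0047 to 0.069 for Nrxn2, -0.032 to 0.093 for Nrxn3, -0.082 to 0.17 for Ptprd, -0.11 to 0.072 for Ptprf, -0.086 to 0.039 for Ptprs, -0.015 to 0.092 for Adgrl1, -0.0100 to 0.12 for Adgrl3, -0.038 to 0.092 for Nlgn1, -0.068 to 0.032 for Nlgn3, -0.0029 to 0.046 for Lrrtm1, -0.11 to 0.051 for Il1rapl1, -0.025 to 0.047 for Cadm1 and -0.016 to 0.16 for Cadm2. Sample weights gave 0.00389 for Dlg1, 0.086 for Dlg2, 0.0092 for Dlgap1, 0.043 for Dlgap2, 0.015 for Dlgap4, 0.12 for Shank1, 0.088 for Shank2, 0.071 for Camk2a, 0.067 for Nrxn3, 0.12 for Ptprd, 0.026 for Ptprf, 0.016 for Ptprs, 0.00739 for Nlgn3, 0.031 for Il1rapl1 and 0.042 for Cadm1. The trend removed gave 0.00391 for Dlg1, 0.00013 for Dlg2, 0.0013 for Shank1, 0.018 for Shank2, 0.033 for Nrxn3, 0.017 for Ptprd and 0.018 for Cadm1. The trend removed without HT 4 gave 0.099 for Dlg2, 0.0049 for Dlgap1, 0.11 for Dlgap2, 0.023 for Dlgap4, 0.12 for Shank1, 0.099 for Shank2, 0.099 for Camk2a, 0.058 for Nrxn3, 0.13 for Ptprd, 0.062 for Ptprf, 0.033 for Ptprs and 0.042 for Cadm1. Quantile normalisation gave -0.00810 for Camk2b, and equal totals gave -0.00223 for Dlg4 and -5.03e-05 for Nlgn1.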
